A study of Rattus norvegicus with 64 samples.

Results

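The genes described here are Bcas1 and 7 companions of the oligodendrocyte lineage (Enpp6, Gpr17, Pdgfra, Cspg4, Olig1, Olig2 and Sox10), 8 of the 32552 gene rows counted in a rat RNA sequencing study. They were picked by symbol. Bcas1 was chosen because its level differed between rats with ApoE3 and rats with ApoE4, and the others because they mark oligodendrocyte precursors or newly formed oligodendrocytes. All 8 genes, and the gene lists used below, were chosen with earlier results of these data known. Each symbol matched 1 gene identifier (Bcas1, ENSRNOG00000012906; Pdgfra, ENSRNOG00000002244; Gpr17, ENSRNOG00000025745). The question put to the data was whether Bcas1 moved alone or with the rest of the lineage.

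Oligodendrocytes arise from precursor cells that divide, spread through grey and white matter, and stop dividing before they make myelin. Precursors carry the PDGF receptor Pdgfra and the NG2 proteoglycan Cspg4. Cells that have just left the precursor state pass through a short stage marked by Gpr17 and Enpp6 and then switch on the myelin genes. Bcas1 is a gene of newly formed and early myelinating oligodendrocytes. The transcription factors Olig1, Olig2 and Sox10 are present throughout the lineage. Apolipoprotein E, the main lipid carrier of the brain, comes in the human forms ApoE3 and ApoE4, and ApoE4 is the form linked to higher risk of Alzheimer disease.

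The 64 libraries came from the hippocampus and the cortex of 32 rats labelled ApoE3 or ApoE4 and given PBS or doxorubicin, an anthracycline chemotherapy drug. Dosing began at 5 weeks of age with 2 mg/kg of doxorubicin per week for 4 weeks, and the brains were collected 5 to 6 weeks after the final injection. The 8 groups were ApoE3 PBS, ApoE3 doxorubicin, ApoE4 PBS and ApoE4 doxorubicin in each region, with 8 libraries per group from 4 males and 4 females, and each rat gave 1 library per region. Both genotypes had a row named for an ApoE3 donor sequence, which held 1204 to 3172 CPM (the usual scaling of a gene's count to the library's total, here a TMM-adjusted total), and the rat Apoe row held 3.1 to 8.86 CPM. Neither row tells ApoE3 from ApoE4, so the genotype labels were not checked by them, and the rat strain is not given in the sources used here. Rat numbers ran in blocks by genotype, sex and treatment, so any handling that followed those numbers cannot be told apart from genotype.

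Totals ran from 10836181 to 20397553 counts per library, with a median of 14476534. Region labels were checked against a marker gene: Prox1, a dentate granule cell factor, held 68.2 to 115.3 CPM in hippocampal and 10.6 to 18.6 CPM in cortical libraries. Choroid plexus genes, tissue that borders the hippocampus, had summed levels from 5.04 to 12318 CPM over hippocampal libraries. Meningeal fibroblast genes summed to 120 to 1165 CPM in hippocampus and 134 to 480 CPM in cortex, and were highest in the hippocampal library of ApoE4 doxorubicin rat 10. All 8 genes passed the filter on low counts in every comparison, with 8 of 8 tested, and the lowest single count was 68, for Enpp6. No strandedness is given in the sources used here, so reads of Bcas1, Enpp6, Gpr17 and Cspg4 cannot be told apart from those of the RefSeq genes that overlap them (Rps23-ps5 and LOC120101805 for Bcas1, LOC103693959 for Enpp6, Lims2 for Gpr17, and Cimap1c and a tRNA gene for Cspg4).

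Upstream sequence from RefSeq (build GRCr8) was found for 5 of the 8 genes. Those of Pdgfra and Gpr17 are shown because these were the genes of the set that were higher in ApoE4 cortex in PBS and in doxorubicin rats alike. Each line is the 250 bases before the annotated start, read 5′ to 3′ in the direction of the gene, both on the minus strand, at chr14:33408517-33408766 for Pdgfra and chr18:23857382-23857631 for Gpr17. Capitals mark matches to the SOX motif ACAANG on either strand.

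Pdgfra: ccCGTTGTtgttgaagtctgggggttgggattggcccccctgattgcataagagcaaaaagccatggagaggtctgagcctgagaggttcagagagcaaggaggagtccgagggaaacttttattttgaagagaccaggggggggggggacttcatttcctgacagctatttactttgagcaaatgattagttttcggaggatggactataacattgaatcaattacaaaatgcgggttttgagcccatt

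Gpr17: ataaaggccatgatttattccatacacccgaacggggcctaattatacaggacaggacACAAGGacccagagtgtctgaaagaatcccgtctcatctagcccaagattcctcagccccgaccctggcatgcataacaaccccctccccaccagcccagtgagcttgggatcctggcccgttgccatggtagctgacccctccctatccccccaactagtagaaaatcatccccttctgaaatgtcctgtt

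Each holds 1 match to ACAANG, and 36.94% of the 33469 upstream windows of the same length hold at least 1. Neither holds the E-box CAGCTG, a motif bound by basic helix-loop-helix factors such as the OLIG proteins, which 11.97% of windows hold. A match describes these letters only.

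Bcas1 encodes a membrane-associated protein of early myelinating oligodendrocytes. It was lower in every ApoE4 library than in any ApoE3 library of the same region and treatment. In the hippocampus of PBS rats, ApoE3 libraries held 356 to 514 CPM (median 467) and ApoE4 libraries 222 to 320 CPM (median 246). In the cortex of PBS rats, ApoE3 libraries held 446 to 725 CPM (median 561) and ApoE4 libraries 247 to 357 CPM (median 291). The lowest ApoE3 libraries lay above the highest ApoE4 libraries in both regions. Mean levels were 457 ± 50.6 against 255 ± 31.5 CPM in hippocampus and 578 ± 91.8 against 297 ± 34.7 CPM in cortex (SD, n = 8 each). The fitted differences were -0.84 (SE 0.08) and -0.96 (SE 0.08) on the log2 scale, so that ApoE4 rats held 55.9% and 51.5% of the ApoE3 level. Bcas1 was chosen for its genotype difference, so its ApoE4 minus ApoE3 values, in PBS and in doxorubicin rats, are a description and carry no test. In bulk tissue, fewer cells of a type and less RNA per cell cannot be told apart, here and for the genes below. Among all genes, groups failed to overlap with ApoE4 lower for 0.535% in hippocampus and 1.03% in cortex, and 2.83% and 16.2% differed at an adjusted p under 0.05 in either direction.

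The doxorubicin rats were other animals. In their hippocampus, ApoE3 libraries held 441 to 594 CPM of Bcas1 (median 506) and ApoE4 libraries 211 to 282 CPM (median 261). In their cortex, ApoE3 libraries held 454 to 657 CPM (median 548) and ApoE4 libraries 253 to 305 CPM (median 292). Again no ApoE4 library reached the level of an ApoE3 library, as was the case for 0.504% of genes in hippocampus and 0.847% in cortex. The fitted Bcas1 difference was -0.99 (SE 0.07) on the log2 scale in hippocampus and -0.94 (SE 0.06) in cortex. Of all genes, 3.23% and 14.1% passed in either direction in these comparisons (edgeR quasi-likelihood F-test, Benjamini-Hochberg over all genes). The ApoE4 level was 50.4% and 52.2% of the ApoE3 level. Both sexes showed the difference in both regions: -1.15 in males and -0.83 in females in hippocampus, and -0.85 in males and -1.03 in females in cortex. In the plot of Bcas1 by group the ApoE4 clouds sit below the ApoE3 clouds throughout.

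**Figure D1:**
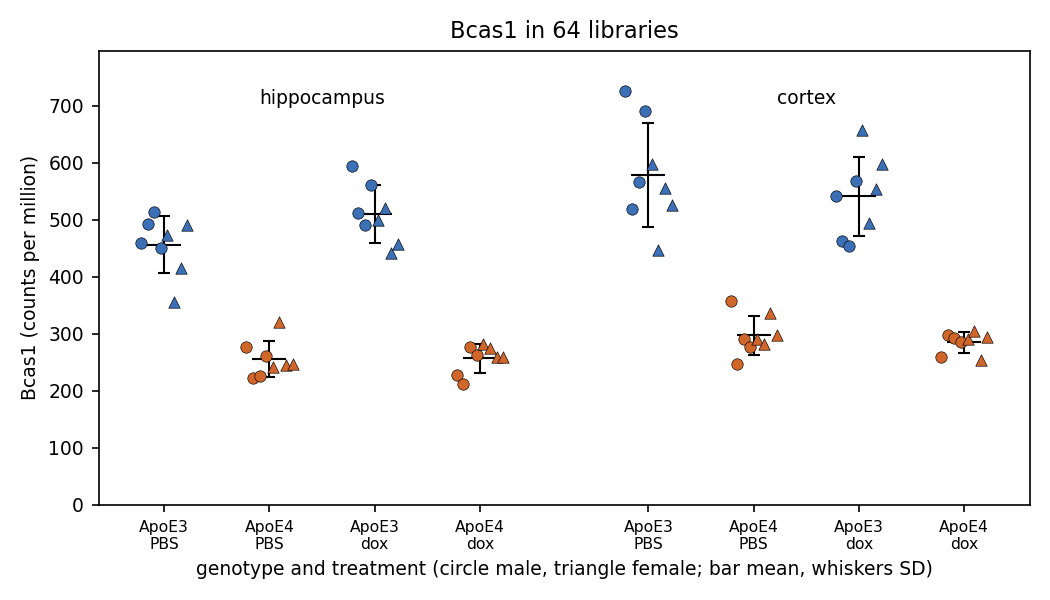
Bcas1 in each of the 64 libraries, in CPM, by region, genotype and treatment; circles are males, triangles females, the bar is the group mean and whiskers are the SD (8 libraries). ApoE3 libraries run from 356 to 725 CPM and ApoE4 libraries from 211 to 357 CPM, and within each region and treatment the 2 genotypes do not overlap.

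Contrasts of the Bcas1 genotype difference are also given as a description with no test, since Bcas1 was chosen for that difference. The ApoE4 minus ApoE3 difference in doxorubicin rats less that in PBS rats was -0.15 (SE 0.11) in hippocampus and 0.02 (SE 0.12) in cortex. These edgeR fits share the libraries of the comparisons above. Between regions of the doxorubicin rats the difference varied by -0.06 (hippocampus less cortex, SE 0.10), in a comparison where 1.31% of genes passed. That fit did not pair the 2 libraries of a rat. No gene passed the genotype by treatment test in either region (0%), with 1261 genes in hippocampus and 834 in cortex at an unadjusted p under 0.05, and 2 and 0 genes by DESeq2. None of the 8 genes passed any of these 3 tests.

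Among the other stage markers, Pdgfra and Gpr17 went the opposite way to Bcas1 in cortex. Pdgfra is the receptor through which PDGF drives precursor division. Cortical libraries of PBS rats held Pdgfra at 67.7 to 84.6 CPM (median 75.4) in ApoE3 and 93.3 to 120.0 CPM (median 107.1) in ApoE4 libraries. Every ApoE4 library was above every ApoE3 library, as for 1.17% of genes. Pdgfra rose by 0.50 on the log2 scale (SE 0.06, adjusted p = 4.16e-06, edgeR), to 141% of the ApoE3 level. Cortical libraries of doxorubicin rats held it at 64.4 to 98.7 CPM (median 81.7) in ApoE3 and 84.9 to 132.4 CPM (median 94.6) in ApoE4 libraries, and the groups overlapped. There Pdgfra rose by 0.26 (SE 0.07, adjusted p = 0.00989, edgeR), and its difference was smaller than in PBS rats by 0.24 (SE 0.10), which did not pass (adjusted p = 0.879). In hippocampus the difference was 0.12 (SE 0.11, adjusted p = 0.656) in PBS and 0.14 (SE 0.13, adjusted p = 0.646) in doxorubicin rats, with overlapping groups.

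Gpr17 encodes a receptor that marks committed cells between precursor and myelinating oligodendrocyte. Cortical libraries of PBS rats held Gpr17 at 19.4 to 27.1 CPM (median 22.5) in ApoE3 and 23.6 to 33.6 CPM (median 27.9) in ApoE4 libraries. Those of doxorubicin rats held it at 16.1 to 28.1 CPM (median 22.6) in ApoE3 and 23.7 to 31.5 CPM (median 27.2) in ApoE4 libraries. The ApoE4 libraries were the higher ones on average, and the groups overlapped in both treatments. Gpr17 rose by 0.31 (SE 0.08, adjusted p = 0.00833) and by 0.30 (SE 0.09, adjusted p = 0.0314) on the log2 scale (edgeR). The second call was lost in 7 of 16 fits that each left out 1 library (ApoE3 rats 47, 51, 68 and 72 and ApoE4 rats 13, 31 and 34; adjusted p up to 0.0701). In hippocampus Gpr17 differed by 0.13 (SE 0.09, adjusted p = 0.543) in PBS and 0.14 (SE 0.08, adjusted p = 0.429) in doxorubicin rats.

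Cspg4, the NG2 proteoglycan, which pericytes also carry, held 27.9 to 35.3 CPM (median 30.2) in ApoE3 and 30.2 to 41.4 CPM (median 36.7) in ApoE4 cortex of PBS rats. The ranges overlapped. It rose by 0.22 (SE 0.06, adjusted p = 0.0132, edgeR) there, and its difference of 0.11 (SE 0.08) in the cortex of doxorubicin rats did not pass (adjusted p = 0.384). In hippocampus it differed by -0.09 (SE 0.07, adjusted p = 0.601) in PBS and 0.12 (SE 0.06, adjusted p = 0.361) in doxorubicin rats.

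Enpp6, a choline phosphodiesterase of newly formed oligodendrocytes, was the member with the fewest counts. Its group means ran from 7.56 ± 1.73 CPM in the hippocampus of ApoE3 PBS rats to 10.1 ± 1.51 CPM in that of ApoE3 doxorubicin rats (SD, n = 8). The ApoE4 minus ApoE3 difference was 0.01 (SE 0.14, adjusted p = 0.993) and -0.39 (SE 0.15, adjusted p = 0.208) in the hippocampus of PBS and doxorubicin rats, and 0.01 (SE 0.13, adjusted p = 0.956) and -0.18 (SE 0.13, adjusted p = 0.409) in their cortex. No genotype comparison passed for Enpp6. The 8 libraries of each group overlapped between genotypes in all 4.

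The pan-lineage factors did not pass in any of the 4 genotype comparisons. Olig1 and Olig2 are the helix-loop-helix factors that specify the lineage, and Sox10 drives its myelin genes. Olig1 held 100.7 to 127.7 CPM (median 116.4) in ApoE3 and 121.7 to 147.1 CPM (median 127.1) in ApoE4 hippocampus of PBS rats, a difference of 0.18 (SE 0.05, adjusted p = 0.0977). Sox10 held 62.1 to 78.0 CPM (median 63.0) in ApoE3 and 67.6 to 80.3 CPM (median 76.3) in ApoE4 libraries there, with a difference of 0.18 (SE 0.05, adjusted p = 0.0908). Every ApoE4 library was above the ApoE3 median for both genes, and the groups overlapped. Sox10 passed in that comparison by DESeq2 (adjusted p = 0.0286) and without ApoE3 rat 61 (adjusted p = 0.00785, edgeR). It also passed with a meningeal score per library in the fit, a setting chosen after seeing the data (0.21, adjusted p = 0.0351, edgeR). In the hippocampus of doxorubicin rats the Olig1 difference was 0.17 (SE 0.09, adjusted p = 0.36) over all libraries. There Olig1 passed without ApoE3 rat 47 (0.25, adjusted p = 0.0388) and in females alone (0.39, SE 0.07, adjusted p = 0.0256, edgeR). Olig2 differed by -0.07 to 0.07 over the 4 genotype comparisons, and in cortex Olig1 differed by 0.03 and 0.10 and Sox10 by 0.09 and 0.12.

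**Figure D2:**
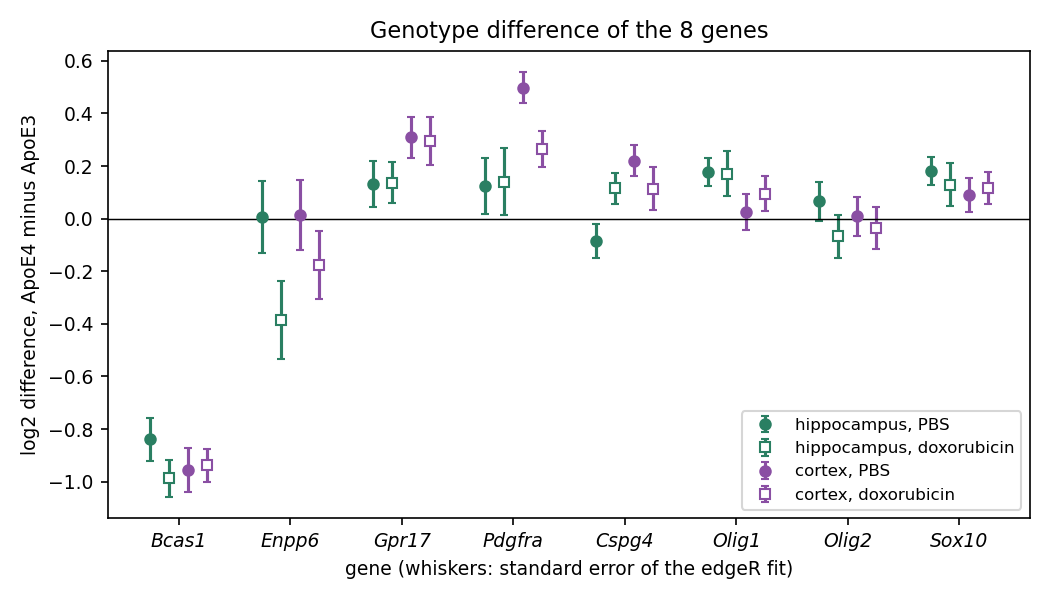
ApoE4 minus ApoE3 difference of each of the 8 genes on the log2 scale (vertical axis) in 4 comparisons, with the standard error of the edgeR fit as whiskers. Bcas1 lies between -0.84 and -0.99 in all 4, while the other genes lie between -0.39 and 0.50.

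Counted over the set, ApoE4 cortex of PBS rats had 3 of the 7 companions higher and 0 lower, against 9.21% of all genes higher and 6.98% lower. Doxorubicin cortex had 2 of the 7 higher and 0 lower, against 7.92% and 6.18%. In hippocampus 0 of the 7 passed in PBS rats (1.43% of all genes higher, 1.4% lower) and 0 of the 7 in doxorubicin rats (1.7% and 1.53%). The ranges of the genotypes overlapped for all 7 there, while 0.522% of all genes in PBS and 0.578% in doxorubicin hippocampus lay wholly higher in ApoE4, and 1.36% in doxorubicin cortex. No companion was called lower in any of the 4 comparisons. The log2 level of Bcas1 less the mean log2 level of Olig1, Olig2 and Sox10 shows the same split in each library, as a description. It ran from 2.47 to 3.26 over ApoE3 libraries and from 1.61 to 2.18 over ApoE4 libraries. Gene length does not enter these levels, so only the change of this quantity between groups can be read.

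**Figure D3:**
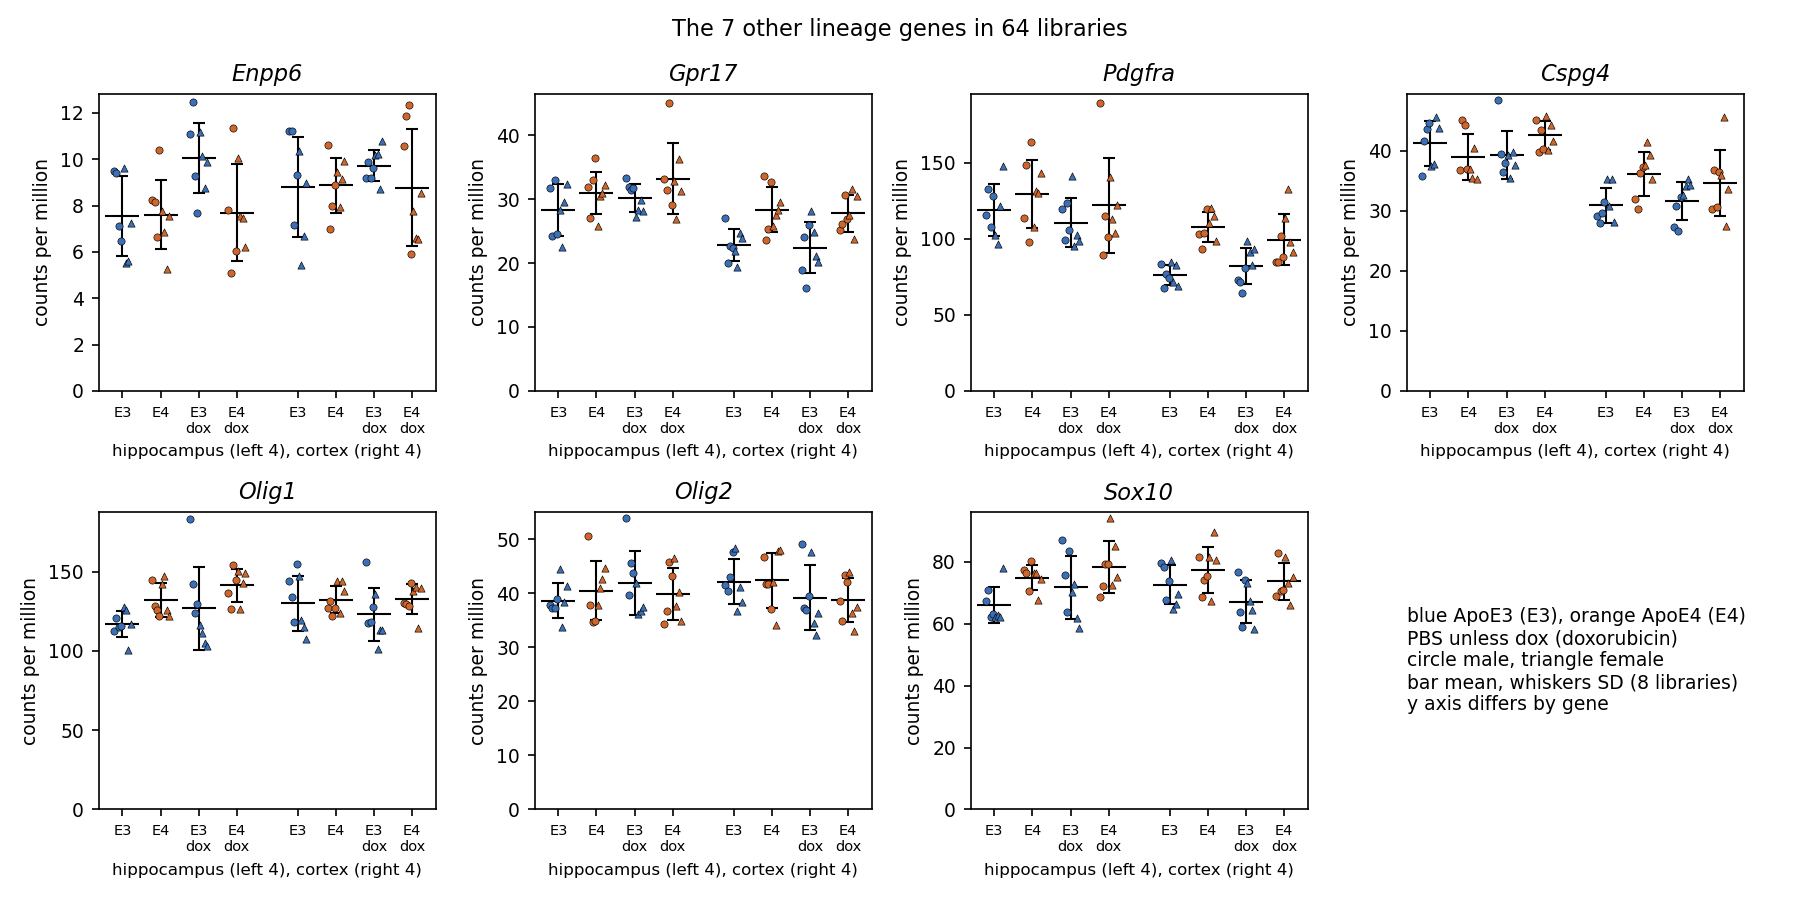
The 7 other genes in each library, in CPM (the vertical axis differs by gene), by region, genotype and treatment; bars are means and whiskers the SD of 8 libraries. ApoE4 libraries (orange) of Pdgfra in the cortex of PBS rats lie wholly above the ApoE3 libraries (blue), 93.3 to 120.0 against 67.7 to 84.6 CPM, and the genotypes overlap in the other plots.

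The wider lists of the lineage show which genes went with the companions, but the lists contain the companions and share some genes. Pdgfra and Cspg4 are counted among the precursor genes, and Gpr17 and Enpp6 among the newly formed ones. Olig1, Olig2 and Sox10 are counted among the transcription factors. That list also shares Sox6 with the precursor genes, and Nkx2-2 and Tcf7l2 with the newly formed ones. Of 14 precursor genes, 9 rose and 0 fell in ApoE4 cortex of PBS rats, beside 9.21% of all genes higher and 6.98% lower. Their median log2 difference was 0.24 beside -0.01 over all genes. In doxorubicin rats 8 rose and 1 fell, beside 7.92% and 6.18% of all genes, with a median of 0.19 beside 0.00 over all genes. The same 8 genes rose in both treatments: Pdgfra, Ptprz1, Pcdh15, Tnr, Xylt1, Sox6, Megf11 and Luzp2. Among them Megf11, a cell-surface protein with EGF repeats, rose by 0.36 (SE 0.08) in PBS and 0.43 (SE 0.06) in doxorubicin rats. Sox6, a factor that keeps precursors from maturing, rose by 0.46 (SE 0.10) and 0.31 (SE 0.10), and Tnr, the matrix protein tenascin-R, by 0.28 (SE 0.06) and 0.26 (SE 0.04). The exception was Matn4, a matrix protein, which fell by 0.34 (SE 0.11, adjusted p = 0.0491, edgeR) in doxorubicin rats. PBS and doxorubicin comparisons share no library, and 13 of 14 precursor genes had the same sign in both, beside 73.6% of all genes.

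In hippocampus 1 of 14 precursor genes rose in each treatment (1.43% of all genes in PBS and 1.7% in doxorubicin rats), Megf11 both times, by 0.47 (SE 0.07, adjusted p = 0.000369) and 0.45 (SE 0.09, adjusted p = 0.00721, edgeR). The list's median was 0.12 in PBS and 0.03 in doxorubicin rats, beside 0.00 over all genes. For the precursor genes the ApoE4 minus ApoE3 difference in doxorubicin rats was tested between regions, and 0 were more positive and 1, Xylt1, less positive in hippocampus (by 0.40, SE 0.08, beside 1.01% of all genes), with a median of -0.11 beside 0.00 over all genes.

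Among newly formed oligodendrocyte genes other than Bcas1, more were called higher than lower in ApoE4 cortex, where Tmem163 in PBS rats was the lower one. Of these 12 genes in the cortex of PBS rats, Gpr17, Bmp4 and Itpr2 rose and Tmem163 fell, beside 9.21% of all genes higher and 6.98% lower. Itpr2, the calcium release channel that marks this stage, rose by 0.48 (SE 0.07, adjusted p = 6.84e-05) and, in doxorubicin rats, by 0.32 (SE 0.08, adjusted p = 0.00669, edgeR). Bmp4, a ligand that holds back oligodendrocyte maturation, rose by 0.38 (SE 0.12, adjusted p = 0.0376) in PBS rats. Tmem163, a zinc transporter, fell by 0.27 (SE 0.08, adjusted p = 0.0223) in PBS rats and differed by -0.01 in doxorubicin rats. In doxorubicin cortex Gpr17 and Itpr2 were among the genes that rose and 0 of the 12 fell, beside 7.92% and 6.18% of all genes. In hippocampus the homeobox factor Nkx2-2 rose in PBS rats, by 0.50 (SE 0.13, adjusted p = 0.0444), where 1.43% of all genes rose. In doxorubicin rats 0 of the 12 passed there, beside 3.23% of all genes.

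**Figure D4:**
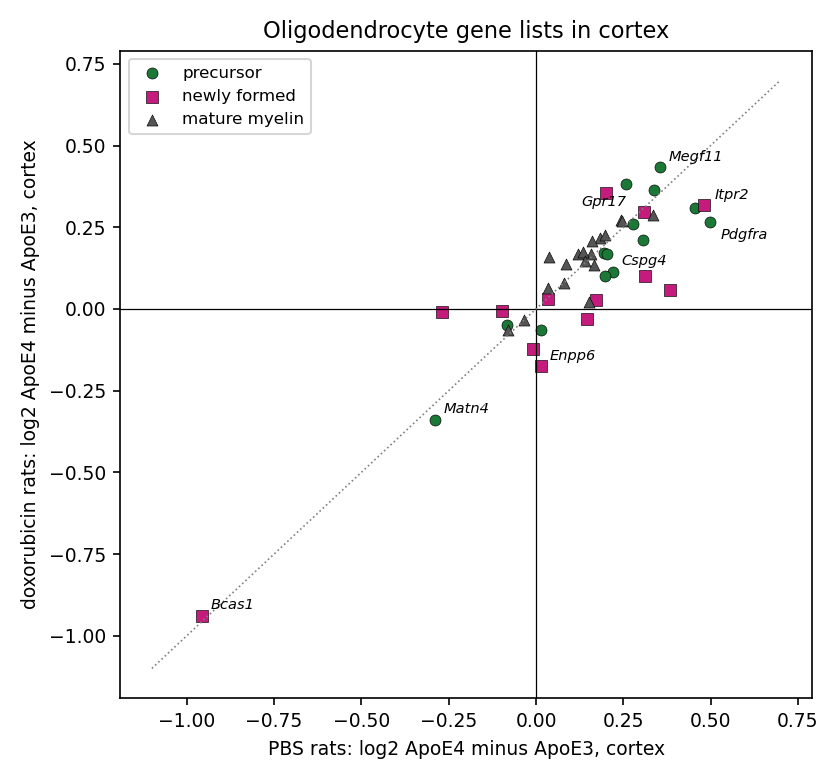
Log2 ApoE4 minus ApoE3 difference in the cortex of PBS rats (horizontal) and of doxorubicin rats (vertical) for each gene of the precursor, newly formed and mature myelin lists; the dotted line marks equal differences. Bcas1 lies alone at -0.96 and -0.94, while most precursor and myelin genes lie above 0 on both axes and Matn4 lies at -0.29 and -0.34.

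Myelin genes, which oligodendrocytes switch on as they mature, gave no lower call in ApoE4. Of all genes 1.4% and 1.53% were lower in the hippocampus of PBS and doxorubicin rats and 6.98% and 6.18% in their cortex. In the hippocampus of PBS rats all 18 listed genes had positive differences, with a median of 0.23, and 4 rose beside 1.43% of all genes, among them Mbp, the myelin basic protein (0.32, SE 0.08), and the lipid hydroxylase Fa2h (0.28, SE 0.06). In the hippocampus of doxorubicin rats 0 of 18 passed, where 1.7% of all genes rose, with a median of 0.06, and the smallest p-values were those of Mal (-0.16, adjusted p = 0.446) and Hapln2 (-0.14, adjusted p = 0.474, edgeR). In cortex 3 rose and 0 fell in PBS rats (among them Ermn and Gjc3; median 0.15), and 6 rose and 0 fell in doxorubicin rats (among them Mag, Cnp, Ermn, Ugt8 and Gjc3; median 0.16). Of all genes 9.21% and 7.92% rose in these cortical comparisons.

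Of 17 transcription factors of the lineage, Nkx2-2 and Id2, an inhibitor of differentiation (0.26, SE 0.06), rose in the hippocampus of PBS rats, where 1.43% of all genes rose, and 0 passed in that of doxorubicin rats, where Zeb2 (-0.18, adjusted p = 0.07) and Zfp488 (-0.41, adjusted p = 0.111, edgeR) had the smallest p-values. Sox6 rose in the cortex of PBS rats, and Sox6 and Zeb2 (0.16, SE 0.04) in that of doxorubicin rats, beside 9.21% and 7.92% of all genes. None of the 17 fell in any of the 4 comparisons, in which 1.4% to 6.98% of all genes fell. Among 16 growth and differentiation signals, 6 rose in the cortex of PBS rats (Fgfr2, Igf1r, Ntrk2, Erbb3, Erbb4 and Notch1) and 4 in that of doxorubicin rats (Igf1r, Ntrk2, Erbb3 and Erbb4), with 0 lower in either, beside the same shares of all genes. The neuregulin receptor Erbb3, which oligodendrocyte lineage cells carry, rose by 0.30 (SE 0.07) and 0.36 (SE 0.07), and Erbb4 by 0.34 (SE 0.08) and 0.42 (SE 0.05). In hippocampus the FGF receptor Fgfr3 rose in doxorubicin rats (0.20, SE 0.04), where 1.7% of all genes rose, and 0 of 16 passed in PBS rats. The smallest p-values there were those of Ntrk2 (0.15, adjusted p = 0.121) and Erbb3 (0.26, adjusted p = 0.145, edgeR).

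Several of these genes are also expressed by other cells. Fibroblasts of the meninges and vessels carry Pdgfra. Of their markers, in the cortex of PBS rats, 7 of 14 meningeal fibroblast genes and 6 of 11 pericyte and smooth muscle genes rose in ApoE4, beside 9.21% of all genes, among them Col1a1 (1.23, SE 0.17) and Col3a1 (1.26, SE 0.16). Summed meningeal levels there ran from 166 to 237 CPM in ApoE3 and from 171 to 408 CPM in ApoE4 libraries. With the meningeal score in the fit, Pdgfra rose by 0.44 (adjusted p = 0.00234) and the Cspg4 difference of 0.19 no longer passed (adjusted p = 0.209, edgeR). In the cortex of doxorubicin rats 0 of 14 meningeal and 0 of 11 pericyte genes passed (medians 0.00 and 0.01), beside 14.1% of all genes. Summed meningeal levels there ran from 162 to 380 CPM in ApoE3 and 134 to 480 CPM in ApoE4 libraries. Pdgfra rose there by 0.27 with that score in the fit (adjusted p = 0.000102, edgeR). In hippocampus the Pdgfra difference in doxorubicin rats was -0.01 with that score. There 14 of 14 meningeal genes were positive (median 0.73, 1 called, beside 1.7% of all genes higher). Their summed levels were 120 to 259 CPM (median 139) in ApoE3 and 138 to 1165 CPM (median 169) in ApoE4 libraries. Of 7 microglia genes 4 fell in ApoE4 cortex in each treatment, beside 6.98% of all genes in PBS and 6.18% in doxorubicin rats. In hippocampus 1 and 2 fell, beside 1.4% and 1.53% of all genes, and Aif1 rose in doxorubicin rats. In the cortex of PBS rats 4 of 6 endothelial and 3 of 8 astrocyte genes also rose, and of 8 neuron genes 1 rose and 3 fell. In that of doxorubicin rats 0, 1 and 2 of these rose and 0 fell, beside 7.92% and 6.18% of all genes. In the 4 comparisons, where 2.83% to 16.2% of all genes passed, 0 choroid plexus genes passed. The part of these cell types in the results was not tested.

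With the mean log2 level of the 18 myelin genes as a covariate, the Bcas1 difference was -1.01 (SE 0.04) in the hippocampus and -1.04 (SE 0.07) in the cortex of doxorubicin rats, again as a description. The Pdgfra and Gpr17 differences in doxorubicin cortex were 0.25 (adjusted p = 0.0869) and 0.24 (adjusted p = 0.249) in that fit and no longer passed. Pdgfra there also missed the threshold without sex as a covariate (0.26, adjusted p = 0.0758). Gpr17 there missed it without the library of rat 72, which stood apart in choroid plexus genes (0.27, adjusted p = 0.0619, edgeR). The Bcas1 difference was -0.92 in cortex without that library. In hippocampus it was -0.98 without those of ApoE4 rats 10 and 31, picked for their levels of tissue marker genes. The ApoE3 doxorubicin library highest in summed choroid plexus genes in hippocampus (6314 CPM, beside at most 2261 CPM in ApoE4 doxorubicin libraries) was kept.

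After group means were subtracted, the 5 genes most alike to Bcas1 over the 32 hippocampal and 32 cortical libraries were Mbp (Pearson r = 0.90 and 0.89), Mobp, another myelin protein (0.82 and 0.86), Pde8a (0.75 and 0.74), Otud7b (0.78 and 0.73) and Map4k4 (0.72 and 0.84), out of 12171 genes compared. Within single groups r between Bcas1 and Mbp, the gene picked as most alike, ran from 0.69 to 0.97 (n = 8 each). With the mean log2 level of the 18 myelin genes, which were not picked by likeness, it ran from 0.64 to 0.96 over the hippocampal groups and from -0.02 to 0.84 over the cortical groups, where it was positive in 3 of 4. Mbp itself did not split by genotype as Bcas1 did: its medians in hippocampus were 4089 and 4567 CPM in ApoE3 PBS and doxorubicin rats and 4664 and 4936 CPM in ApoE4, and in cortex 4982 and 4596 against 5612 and 5287 CPM. In the plot of Bcas1 against Mbp the ApoE4 libraries lie below the ApoE3 libraries over the range of Mbp that both cover.

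**Figure D5:**
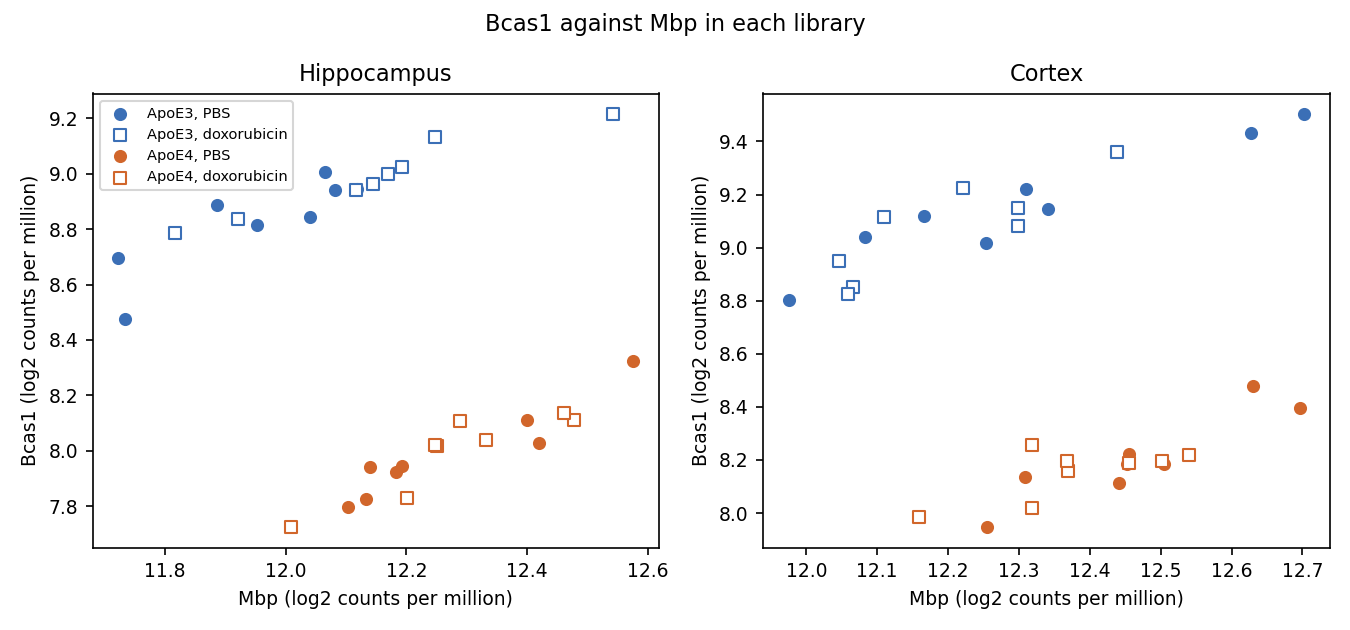
Bcas1 against Mbp in each library, both as log2 CPM, in hippocampus (left) and cortex (right); blue is ApoE3, orange ApoE4, filled circles PBS and open squares doxorubicin. Bcas1 follows Mbp within each genotype (r from 0.69 to 0.97 by group) on 2 separate bands, with the ApoE4 band below.

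The relation of Bcas1 with the companions was taken over the same group-centred values (n = 32 per region, 16 relations, 100000 permutations, Benjamini-Hochberg adjustment over the 16). With Sox10, Pearson r was 0.59 in hippocampus (permutation p = 0.00043, adjusted p = 0.00344; Spearman rho 0.61, permutation p = 4e-04) and 0.57 in cortex (permutation p = 0.00169, adjusted p = 0.00491; rho 0.59, permutation p = 0.00135). Without the 2 libraries farthest from the median r was 0.66 and 0.51. Olig2 gave r of 0.56 and 0.50 (rho 0.55 and 0.47; adjusted permutation p = 0.00491 and 0.0115), and Olig1 0.51 and 0.49 (rho 0.52 and 0.51; adjusted permutation p = 0.00491 and 0.0215). With the mean log2 level of the 18 myelin genes r was 0.76 in hippocampus (rho 0.76; permutation p = 1e-05, the smallest these permutations can give; adjusted p = 0.00016) and 0.47 in cortex (rho 0.45; adjusted permutation p = 0.0215), and the cortical value was 0.38 without the 2 farthest libraries. With Cspg4 r was 0.01 in hippocampus and 0.31 in cortex (rho -0.01 and 0.37), with adjusted permutation p of 0.977 and 0.076. With Pdgfra it was 0.18 (rho 0.20; adjusted permutation p = 0.368) and 0.47 (rho 0.46; adjusted permutation p = 0.00914), and with Gpr17 0.35 (rho 0.33; adjusted permutation p = 0.076) and 0.57 (rho 0.53; adjusted permutation p = 0.00491). With Enpp6 it was 0.41 and 0.42 (rho 0.37 and 0.36; adjusted permutation p = 0.0385 and 0.0218), and the cortical value dropped to 0.23 without the 2 farthest libraries. These values include whatever differences in dissection the libraries of a group have.

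Without subtraction of group means, the genotype difference enters the likeness to Bcas1. The 5 most alike genes were Gatm, a creatine synthesis enzyme (r = 0.88 and 0.90), P2rx4, an ATP-gated channel (0.92 and 0.88), Ghdc (0.86 and 0.88), Ube2v1, a ubiquitin-conjugating enzyme variant (0.85 and 0.91), and the lysosomal sulfatase Arsb (0.85 and 0.88). Each was lower in ApoE4 in all 4 comparisons, from -0.29 for Arsb to -1.92 for Ghdc, as the choice of genes requires.

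In the RefSeq gene order the 5 nearest tested genes on each side of Bcas1 are Kcng1, Nfatc2, Zfp64, Tshz2 and Zfp217, and Pfdn4, Dok5, Cbln4, Fam210b and Aurka. Of these 10, 0 passed in the hippocampus of PBS rats, 0 in that of doxorubicin rats and 0 in the cortex of doxorubicin rats, beside 2.83%, 3.23% and 14.1% of all genes. In the cortex of PBS rats 2 of the 10 passed, beside 16.2% of all genes: the zinc-finger gene Zfp217 rose (0.45, SE 0.13, adjusted p = 0.0169) and the prefoldin gene Pfdn4 fell (by 0.34, SE 0.08, adjusted p = 0.00758, edgeR).

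Doxorubicin itself left the 8 genes below the threshold. In each of the 4 comparisons with PBS 0 of 8 passed, as did 0% of all genes by edgeR, with 1098 to 1530 genes at an unadjusted p under 0.05 and 161, 1, 76 and 35 genes by DESeq2 (hippocampus of ApoE3 and ApoE4 rats, then cortex of each). Enpp6 had the largest difference, in the hippocampus of ApoE3 rats, where PBS libraries held 5.52 to 9.61 CPM (median 7.19) and doxorubicin libraries 7.69 to 12.5 CPM (median 10.0). The ranges overlapped, and the difference of 0.41 (SE 0.13) had an adjusted p of 0.246. Bcas1 differed there by 0.16 (SE 0.06, adjusted p = 0.379), and 17 of 18 myelin genes were positive with 0 past the threshold. There 14 of 14 meningeal fibroblast genes were negative (median -1.17), with summed levels of 151 to 766 CPM in PBS and 120 to 259 CPM in doxorubicin rats, and their part in these values was not tested. The authors' deposited table gives that Enpp6 comparison a log2 fold change of 0.41 with an adjusted p of 0.119 and Bcas1 one of 0.16 with an adjusted p of 0.36. In the other 3 comparisons Bcas1 differed by 0.00, -0.09 and -0.07 (hippocampus of ApoE4, cortex of ApoE3, cortex of ApoE4). The doxorubicin and genotype comparisons share their PBS or doxorubicin libraries and are not independent.

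Between regions, Pdgfra, Gpr17 and Cspg4 went the other way to Bcas1. Over all 64 libraries 71.5% of genes differed between hippocampus and cortex, 37.4% higher and 34% lower in hippocampus. Pdgfra was higher in hippocampus in 29 of 32 rats, with 120 ± 22.4 against 91.4 ± 17.2 CPM, a difference of 0.41 (SE 0.05, adjusted p = 6.32e-10, edgeR). Gpr17 (29 of 32 rats; 0.28, SE 0.05, adjusted p = 1.64e-07) and Cspg4 (28 of 32 rats; 0.28, SE 0.04, adjusted p = 4.14e-10) were higher in hippocampus as well, while of the 14 precursor genes 6 were higher and 6 lower there. Bcas1 was higher in cortex in 26 of 32 rats, by 0.20 (SE 0.04, adjusted p = 1.47e-05), in the direction of the myelin list, of which 14 of 18 were lower in hippocampus. Enpp6 differed by -0.14 (adjusted p = 0.072), and passed with the rat as a block (-0.15, adjusted p = 0.0234, edgeR). Olig1, Olig2 and Sox10 differed by -0.02 to 0.00 (adjusted p from 0.759 to 0.963).

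Ordered by mean level, Bcas1 ran from the cortex of ApoE3 rats (578 and 541 CPM in PBS and doxorubicin) through the hippocampus of ApoE3 rats (510 in doxorubicin and 457 in PBS) to the cortex (297 and 285) and hippocampus (257 and 255) of ApoE4 rats. The ranges of neighbours in that order overlapped at every step. The step between genotypes, 457 ± 50.6 against 297 ± 34.7 CPM, compares hippocampus with cortex, and its ranges met only at 356 and 357 CPM.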

How the data were processed

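RNA of hippocampus and cortex from 32 rats was sequenced as 64 libraries. Per the submitters' processing notes, reads were aligned with STAR 2.5.2b and groups compared with DESeq2 (no version stated). Strandedness, build and counting tool are not given in the sources used here. The authors deposited raw counts per gene and library, which were the values tested here. Per the file headers, their comparison tables also hold the log2 fold change of doxorubicin against PBS, p-values with adjusted p-values, and a normalised signal per library. The authors' deposited normalised signal was not used for tests.

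From the counts, 92 spike-in rows were removed (0.932% to 2.44% of counts), leaving 32552 gene rows, of which 15432 have a symbol. Genes were filtered (filterByExpr), scaled (TMM) and tested with the quasi-likelihood F-test of edgeR 4.0.16 (R 4.3.3) with sex as a covariate and Benjamini-Hochberg adjustment at 0.05, on the 16 libraries of the groups compared, the 32 of a region for genotype by treatment, the 32 doxorubicin libraries for genotype by region, and all 64 for region. CPM are TMM-scaled, and log2 CPM used a prior count of 1. DESeq2 1.42.0, other scaling, no filter, covariates, single sexes and leaving out libraries were tried. Totals of 10836181 to 20397553 counts per library set the precision. No 2 libraries of a group were duplicates (lowest chi-square per gene 3.04 over 224 pairs). The scripts were tested on simulated data.

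The 8 genes and all lists were chosen with earlier results of these data known, and the genotype difference of Bcas1 is given with no test in either treatment; 136 of 142 list genes were matched. Named genes were the 8, the list genes that passed (otherwise the 2 of smallest p), the 5 nearest tested genes on each side of Bcas1, and the 5 genes of highest likeness, by the lower of the hippocampal and cortical Pearson r. Some genes that this rule names are not reported here. A shared rat number pairs the 2 regions of 1 animal: after group means were subtracted, r across 13202 genes was over 0.1 in 27 of 32 rats (median 0.22).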

Additional observations from a re-analysis of the deposited data

Results flagged for a closer look

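Cspg4 in the hippocampus of ApoE3 doxorubicin rats had 1 library far from the others: rat 47 held 48.4 CPM and the next library 39.8 CPM, a gap of 0.672 of the group's range. Of 64 sets of 8 libraries (8 genes in 8 groups) this was the 1 set with such a gap. Over that many sets chance can give such a gap, and how often it does was not tested. Without that rat's library the Cspg4 difference between genotypes in these doxorubicin rats did not pass either.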

How the results depend on the processing

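The Bcas1 genotype difference, a description with no test, was negative under every alternative run; leaving out 1 library at a time gave -1.02 to -0.95 in hippocampus and -0.97 to -0.90 in cortex of doxorubicin rats, and in PBS rats -0.90 to -0.81 and -1.002 to -0.91, while the myelin score as a covariate moved the hippocampal PBS value to -1.02. No difference of the 8 genes that passed changed sign under an alternative. Genotype differences of the companions that did not pass did change sign, such as Pdgfra (-0.01 to 0.14) and Olig1 (-0.05 to 0.39) in the hippocampus and Enpp6 (-0.45 to 0.08) in the cortex of doxorubicin rats. Counts of genes called moved more. In the hippocampus of PBS rats 423 genes became 669 by DESeq2, 234 with the myelin score, 58 in males and 79 in females (296 to 399 with 1 library left out). In that of doxorubicin rats 481 became 728 by DESeq2, 85 in males and 102 in females (355 to 516). For cortex of PBS rats 2400 became 1488 in males, 585 in females and 634 with a meningeal score, an alternative chosen after seeing the data (1870 to 2411). In that of doxorubicin rats 2099 became 1021 with the myelin score, 1104 in males and 700 in females (1778 to 2139). For doxorubicin the count of 0 became 161 in the hippocampus of ApoE3 and 1 in that of ApoE4 rats by DESeq2; in the cortex of ApoE3 rats 76 by DESeq2, 7 with no filter, 10 with 32 libraries, 65 in males and 137 in females; and in that of ApoE4 rats 35, 4 with no filter and 2 in males. Genotype by treatment in hippocampus gave 2 by DESeq2. Genotype by region (203) gave 418 by DESeq2, 109 with no filter and 127 with the rat as a replicate block. In these fits 0 of the 7 companions were called. Between regions the block changed the call of Enpp6 and no other. Single-sex fits hold fewer libraries; the cause of the other moves was not tested. Cspg4 and Gpr17 in the cortex of PBS rats passed in neither sex alone (Cspg4 0.19 and 0.25, Gpr17 0.31 and 0.31), and Pdgfra in that of doxorubicin rats passed in males (0.30) and not in females (0.23). Enpp6, at 68 to 219 counts per library, had the widest errors.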

Other observations

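Of the 5 genes whose levels were most like those of Bcas1 across libraries, Ube2v1 lies on the same chromosome with 12 tested genes between, and Gatm lies there with 328 between; the other 3 lie elsewhere. Their places were looked up after their values were seen. Among the 179 tested genes within up to 100 on each side of Bcas1, 1.68% and 3.35% passed in the hippocampus of PBS and doxorubicin rats, and 17.3% and 20.7% in their cortex, beside 2.83%, 3.23%, 16.2% and 14.1% of all genes.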
